A study of Mus musculus with 24 samples.

Results

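Molecular chaperones were followed through lens development as the 69 genes, of 12611 gene symbols listed, that encode the Hsp70 family, the Hsp110 relatives of Hsp70, the Hsp90 family, the mitochondrial chaperonin pair Hspd1 and Hspe1, the J-domain proteins of classes A, B and C, the 8 subunits of the cytosolic chaperonin CCT, and the Bag proteins. Members were taken by gene symbol alone, under a rule set with earlier results of these data known. The set holds 8 Hsp70, 3 Hsp110, 3 Hsp90, 2 mitochondrial chaperonin, 4 DnaJ A, 10 DnaJ B, 25 DnaJ C, 8 CCT and 6 Bag genes. The stress-inducible Hsp70 genes Hspa1a and Hspa1b were not among the symbols listed, so their levels are not known from these data. All 69 passed the filter on low counts, as did 12427 genes in all, and every one is accounted for in what follows.

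The RNA came from lens fiber and from lens epithelium dissected from CD1 mice, an outbred stock with no engineered allele or treatment. Each tissue was taken from embryos at E14.5, E16.5 and E18.5 and from newborns at P0.5, with 3 biological replicates per tissue and stage, which gives 8 groups and 24 libraries of total RNA. Fiber cells are the elongated cells that fill the lens, make crystallins and later lose their organelles, and the epithelium is the sheet of cells over the anterior lens from which they form. Whether lenses of several animals were pooled in a replicate was not stated in the sources used here, so the tests below measure the spread between libraries.

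Hsp70 proteins bind exposed hydrophobic stretches of unfolded proteins in a cycle driven by ATP. J-domain proteins (DnaJ) bring them clients and start ATP hydrolysis, while Hsp110 and Bag proteins release the spent nucleotide. Hsp90 proteins take over from Hsp70 to finish and hold signalling proteins such as kinases and receptors, and the ring-shaped CCT folds actin and tubulin. In the lens, chaperone work is best known from the alpha crystallins, which are small heat shock proteins, and from the heat shock factor HSF4, whose loss causes cataract.

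Marker genes matched the tissue labels. All 8 fiber markers, among them Mip and Lim2, were higher in fiber and all 5 epithelial markers, among them Foxe3 and Cdh1, were lower. Markers of neighbouring tissues differed too: averaged over stages, those of endothelium (6 of 6), mural cells (4 of 4), mesenchyme (5 of 5) and pigment cells (6 of 6) were lower in fiber. So were 4 of 5 macrophage and 4 of 5 retina markers, while the retina marker Rcvrn was higher (2.28). Of the pigment cell markers 0 were called at E14.5 and 1 at E16.5. The mesenchyme marker Pdgfra stood at 343.8 to 608 CPM in the epithelium libraries, while Col1a1, Col1a2, Col3a1 and Dcn reached 72.7 CPM at most there. Pdgfra therefore need not mark mesenchyme in these libraries. Summed retina markers reached 96.2 to 147.7 CPM (read counts scaled to a common total of 1000000 per library) in the E18.5 and P0.5 epithelium libraries, against 4.99 to 26.1 CPM in the E14.5 and E16.5 ones, and summed pigment cell markers reached 70.5 to 172.9 CPM at the later 2 stages against 2.09 to 11.2 CPM at the earlier 2. Library totals were 13010174 to 21617737 counts in fiber and 7658794 to 11819117 in epithelium. In bulk tissue, fewer cells of a type and less RNA per cell cannot be told apart.

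Crystallin genes took 23.3 to 43.9% of the counts in fiber libraries and 1.66 to 4.28% in epithelium libraries, so the scaling of the libraries set the level of everything else. With TMM factors, which assume that most genes do not differ and are used throughout unless stated, the median gene differed by -0.03 on the log2 scale between fiber and epithelium. With the plain library size that median moved to -1.23, with crystallin genes left out to -0.71, and with crystallin genes and the ribosomal repeat Rn45s left out to -0.63. Rn45s took 3.98 to 28.9% of the counts in fiber libraries and 5.29 to 17.4% in epithelium libraries. The 69 chaperone genes together held 0.501 to 0.864% of all counts in fiber libraries and 0.842 to 1.03% in epithelium libraries. The 0.501% was that of E18.5 fiber replicate 2, the library with 28.9% Rn45s, and the next lowest fiber library had 0.658%. Counted without crystallins and Rn45s, the chaperone sums were 1.18 to 1.3% in fiber and 0.916 to 1.25% in epithelium. At each stage the fiber mean was the lower of the pair by all counts and the higher once crystallins and Rn45s were set aside. At E14.5 the latter means were close, 1.19 ± 0.01% in fiber and 1.18 ± 0.06% in epithelium (SD, n = 3 each), and the libraries overlapped. The median log2 difference of the chaperone genes lay 0.50 above the median of all genes in each of these settings. A change of scaling shifts nearly all genes alike, so this distance could hardly move and is no test of the scaling.

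Averaged over the 4 stages, 21 of the 69 chaperone genes (30.4%) rose in fiber against epithelium and 3 (4.35%) fell, with a call needing an adjusted p under 0.05 by edgeR's quasi-likelihood test and at least a 2-fold difference. Over all genes tested, 15.7% were called higher and 22.2% lower. The 2 steepest rises were those of the J-domain genes Dnajb1 (3.20 ± 0.04 log2, SE) and Dnajb2 (3.10 ± 0.04), and the genes that fell were Dnajc9 (-2.77 ± 0.08), Hspa12a (-2.12 ± 0.10) and Hspa12b (-1.39 ± 0.11). These 5 genes were called in the same direction under each of the 6 scalings and tools tried. The other 19 called genes, which include 6 of 8 CCT subunits, rose with TMM, with RLE size factors and with DESeq2, while with library size only none of them was called and 9 had negative values of -0.19 to -0.05. Cct5 and Tcp1 were also called with crystallins left out, with or without Rn45s. The median over the chaperone genes was 0.47 with TMM, -0.13 with crystallins and Rn45s left out and -0.74 with library size only.

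**Figure D1:**
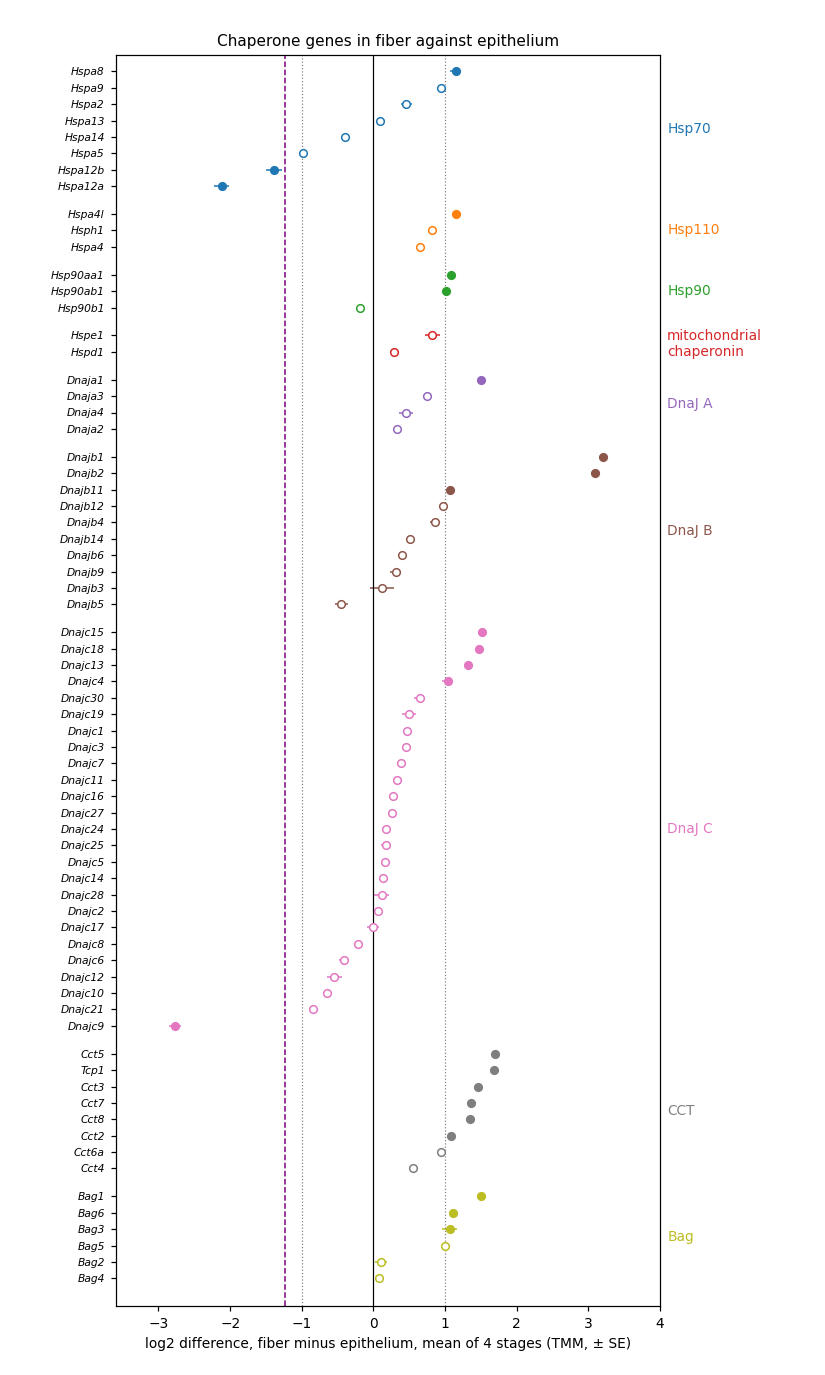
Each point is 1 of the 69 chaperone genes, grouped by family down the page, with its log2 difference of fiber minus epithelium averaged over 4 stages (TMM scaling, bars are SE) on the horizontal axis. Filled points are called, dotted lines mark 2-fold, and the purple dashed line at -1.23 marks where the median of all genes moves to when libraries are scaled by size only, a shift that takes 9 of the 21 higher genes below 0. Dnajb1 and Dnajb2 stand apart on the right and Dnajc9 and Hspa12a on the left.

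By stage, E14.5 had 11 chaperone genes called higher in fiber (beside 14% of all genes) and 4 lower (beside 19.4%), and E16.5 had 18 higher (beside 14.6%) and 4 lower (beside 20.4%). The count at E18.5 was 26 higher (beside 17.4%) and 4 lower (beside 24.2%), and at P0.5 it was 27 higher (beside 17.5%) and 3 lower (beside 24.5%). With edgeR's adjusted p alone and no fold threshold, 51 were higher and 12 lower on average, beside 44% and 46.4% of all genes. On that rule the later 3 stages had 45, 47 and 45 higher, beside 38.2%, 39.8% and 39.6% of all genes, and 10, 11 and 10 lower, beside 39.7%, 42.5% and 43.3%, while E14.5 had 42 higher and 10 lower, beside 38.4% in each direction. Called higher at every stage were 10 genes, namely Bag1, Cct3, Cct5, Tcp1, Dnaja1, Dnajb1, Dnajb2, Dnajc13, Dnajc15 and Dnajc18, and the 3 that fell did so at every stage. No stage called 36 of the 69, and no gene was called in opposite directions at different stages.

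Of the 8 Hsp70 genes, Hspa8 rose on average with TMM (-0.05 with library size only), Hspa12a and Hspa12b fell under each scaling, and 5 were not called. Hspa12a (chromosome 19, 58795750 to 58943654 on the minus strand of GRCm38) encodes an atypical Hsp70 with a divergent substrate domain. In fiber libraries it had 2.32, 2.24 and 2.36 (E14.5), 2.88, 2.08 and 2.24 (E16.5), 1.64, 3.33 and 2.23 (E18.5), 1.65, 1.76 and 2.10 (P0.5) CPM. In epithelium libraries it had 10.6, 9.66 and 10.9 (E14.5), 9.69, 7.63 and 7.72 (E16.5), 12, 8.07 and 12.9 (E18.5), 9.02, 9.80 and 7.28 (P0.5) CPM. Every fiber library lay below every epithelium library, and the difference was 4.33-fold (edgeR adjusted p = 1.72e-15). Its relative Hspa12b, known from endothelial cells, averaged 3.65 ± 0.749, 2.70 ± 0.633, 3.03 ± 0.754 and 1.94 ± 0.861 CPM at the 4 stages in fiber and 7.86 ± 1.12, 7.42 ± 1.34, 6.71 ± 0.756 and 7.33 ± 0.146 CPM in epithelium (SD, n = 3 each). The 6 endothelial markers moved with it, since they summed to 10.1 to 32.6 CPM in fiber libraries and 174.9 to 316.3 CPM in epithelium libraries. Their part in the Hspa12b difference was not tested.

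The major cytosolic member Hspa8, the constitutive Hsc70 that also strips clathrin from vesicles, averaged 56.2 ± 6.97, 51.4 ± 1.70, 63.4 ± 13.2 and 56.7 ± 10.4 CPM from E14.5 to P0.5 in fiber and 29.8 ± 6.16, 24.1 ± 2.80, 24.8 ± 3.57 and 24.5 ± 4.53 CPM in epithelium. It rose by 1.15 ± 0.08 log2 on average (edgeR adjusted p = 2.31e-12). Of the 100-base windows of its transcript 63.4% also occur in other genes, mostly pseudogenes, so reads may be shared and its low level per kb, 13.2 CPM in fiber and 5.99 in epithelium, is uncertain. Hspa9, the mitochondrial Hsp70 that pulls proteins through the inner membrane, was not called on average at 0.94 ± 0.02, just under 2-fold. It averaged 256 ± 8.72, 294 ± 2.83, 349.8 ± 10.7 and 363 ± 11.4 CPM in fiber and 196 ± 6.22, 168 ± 6.76, 150.4 ± 0.995 and 141 ± 2.58 CPM in epithelium. Hspa13 (0.09), a microsomal Hsp70, and Hspa14 (-0.40), which works at the ribosome, were not called.

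Hspa5 encodes BiP, the Hsp70 of the endoplasmic reticulum, and stood at 46.2 CPM per kb in fiber and 92.2 in epithelium. Within the family Hspa9 had the highest level per kb in fiber (73.3) and Hspa5 in epithelium. Its means were 224 ± 13, 211 ± 8.75, 196 ± 10.3 and 150.4 ± 15.4 CPM at the 4 stages in fiber and 477 ± 71.1, 392 ± 9.86, 410.4 ± 21.59 and 279.9 ± 35.1 CPM in epithelium (SD, n = 3 each). Averaged over stages the difference was -0.98 ± 0.05 (edgeR adjusted p = 5.16e-16), which misses 2-fold. It was called lower at E14.5 (-1.09) and E18.5 (-1.06) and not at E16.5 (-0.89) or P0.5 (-0.90). With crystallins and Rn45s left out it was called lower on average too, at -1.59. A ratio within a library is free of scaling: Hspa5 stood at 0.892, 0.730, 0.573 and 0.423 times Hspa9 per kb in fiber at the 4 stages, and at 2.47, 2.38, 2.78 and 2.03 times in epithelium. This pair was chosen after the values were seen.

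Hsp90b1 (Grp94), the Hsp90 of the same compartment, averaged 477 ± 19.0, 455 ± 23.0, 445 ± 6.45 and 367 ± 11.8 CPM in fiber and 625 ± 80.2, 497 ± 34.9, 516 ± 19.1 and 376 ± 21.62 CPM in epithelium. Its difference of -0.19 ± 0.04 was not called. Its ratio to the cytosolic Hsp90ab1 per kb, another pair chosen after seeing the values, was 0.151, 0.124, 0.110 and 0.0894 in fiber and 0.315, 0.267, 0.293 and 0.215 in epithelium. The promoters of both genes carry the endoplasmic reticulum stress element, the sequence bound under stress of that compartment by factors such as ATF6 together with NF-Y. They are shown because this motif, searched on both strands as CCAAT, any 9 bases and then CCACG, occurred in 39 of 32851 mouse promoter windows (0.119%) and in 3 of the 75 windows of chaperone genes (4%), the third gene being Dnajc3. Each window runs from 250 bases before to 50 bases after the start site in RefSeq (GRCm38.p6) and reads 5′ to 3′ on the gene's strand, with the matches in capitals. Hspa5 lies at chr2:34771840-34772139 on the plus strand and Hsp90b1 at chr10:86705395-86705694 on the minus strand.
Hspa5: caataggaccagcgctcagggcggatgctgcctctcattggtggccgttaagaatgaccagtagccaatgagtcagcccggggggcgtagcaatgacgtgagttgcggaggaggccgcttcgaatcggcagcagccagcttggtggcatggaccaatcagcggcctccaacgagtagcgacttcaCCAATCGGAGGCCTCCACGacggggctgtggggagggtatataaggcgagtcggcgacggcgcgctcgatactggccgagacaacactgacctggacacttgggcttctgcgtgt
Hsp90b1: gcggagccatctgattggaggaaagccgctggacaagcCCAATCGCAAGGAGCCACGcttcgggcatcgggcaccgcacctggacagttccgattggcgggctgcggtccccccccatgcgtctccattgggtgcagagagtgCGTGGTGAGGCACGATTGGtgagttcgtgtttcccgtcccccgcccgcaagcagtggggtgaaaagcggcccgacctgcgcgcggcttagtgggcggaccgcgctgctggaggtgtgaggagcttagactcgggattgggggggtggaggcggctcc
Hsp90b1 has a match on each strand. A match describes the letters, not binding.

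Hspa2, an Hsp70 best known from spermatogenesis, was the 1 family member called over time. In fiber libraries it had 6.50, 6.45 and 6.58 (E14.5), 6.55, 8.15 and 6.72 (E16.5), 9.93, 9.18 and 8.60 (E18.5), 6.84, 7.02 and 9.55 (P0.5) CPM. In epithelium libraries it had 3.56, 2.69 and 3.78 (E14.5), 5.12, 5.65 and 4.27 (E16.5), 7.72, 6.97 and 8.30 (E18.5), 6.83, 7.05 and 7.67 (P0.5) CPM. The E14.5 epithelium libraries were the lowest of all, and the tissues overlapped at P0.5 and at no earlier stage. It rose in epithelium at P0.5 against E14.5 by 1.10 ± 0.15 log2 (edgeR adjusted p = 1.56e-06), or 0.96 and so uncalled without E14.5 epithelium replicate 2. Its fiber change was 0.26 ± 0.15. The summed levels of retina and pigment cell markers were also higher in the later epithelium libraries, and their part in this change was not tested.

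Among the 4 DnaJ A genes, the class with the full domain layout of the bacterial protein, Dnaja1 rose in fiber. Its fiber libraries had 95.2, 95.7 and 88.1 (E14.5), 88.9, 96.4 and 97.7 (E16.5), 73.5, 91.8 and 84.9 (E18.5), 83.1, 81.4 and 89.4 (P0.5) CPM. Its epithelium libraries had 30.9, 27.3 and 26.0 (E14.5), 31.6, 32.7 and 30.7 (E16.5), 29.3, 29.7 and 33.0 (E18.5), 36.3, 37.7 and 33.3 (P0.5) CPM. The tissues did not overlap, and the difference was 1.5 ± 0.04 (edgeR adjusted p = 4e-21), although 24% of its transcript windows are shared with other genes. Dnaja2, the highest of the class per kb at 34.5 CPM in fiber and 27.5 in epithelium, averaged 94.9 ± 5.57, 105 ± 5.05, 105 ± 1.83 and 106 ± 5.51 CPM in fiber and 88.3 ± 1.99, 85.0 ± 1.48, 78.9 ± 1.84 and 75.2 ± 5.08 CPM in epithelium and was not called (0.33). Dnaja3, the mitochondrial member, was at 0.75.

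Dnaja4, a cytosolic member inducible by heat, was the gene of this class that moved with age in both tissues. In fiber it had 3.98, 3.92 and 2.53 (E14.5), 2.48, 3.16 and 2.52 (E16.5), 9.58, 11.7 and 10.1 (E18.5), 11.8, 12.8 and 16.3 (P0.5) CPM. In epithelium it had 2.53, 3.04 and 1.74 (E14.5), 4.19, 4.71 and 3.30 (E16.5), 5.32, 5.35 and 6.21 (E18.5), 6.12, 6.79 and 7.78 (P0.5) CPM. The step in fiber came between E16.5 and E18.5 (1.92 ± 0.20 log2), where the libraries do not overlap, while the epithelium means were higher at each later stage with no single step called. At P0.5 against E14.5 it rose by 1.96 ± 0.19 in fiber (edgeR adjusted p = 7.75e-09) and by 1.52 ± 0.20 in epithelium (edgeR adjusted p = 6.96e-07). The difference between those 2 changes was 0.44 ± 0.28 (edgeR adjusted p = 0.212). Exons of a gene on the opposite strand overlap 44.1% of its exon length, and since the strand setting of the counting was not given, reads of that gene may be included.

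The DnaJ B class held the 2 largest fiber rises. Dnajb1 (chromosome 8, 83608193 to 83612653, plus strand), the main Hsp40 partner of cytosolic Hsp70 and a classic heat shock gene, had 198, 236 and 233 (E14.5), 243, 274 and 280.4 (E16.5), 305, 308 and 333 (E18.5), 304, 297 and 310.0 (P0.5) CPM in fiber libraries. In epithelium libraries it had 25.2, 28.3 and 32.3 (E14.5), 27.8, 31.7 and 31.0 (E16.5), 30.1, 30.3 and 30.6 (E18.5), 27.6, 30.8 and 31.8 (P0.5) CPM. No fiber library came near the epithelium range, and the mean difference was 9.19-fold (edgeR adjusted p = 1.78e-26). With library size only it was 2.0 log2. Within libraries Dnajb1 stood at 2.19, 2.35, 2.80 and 2.66 times Dnaja2 per kb in fiber and at 0.301, 0.330, 0.357 and 0.371 times in epithelium, a pair chosen after seeing the values. Of these 2 genes Dnajb1 had the higher level per kb in fiber and Dnaja2 in epithelium.

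Dnajb2 (chromosome 1, 75236406 to 75245692, plus strand) encodes HSJ1, a J-domain protein with ubiquitin-interacting motifs that passes Hsp70 clients to the proteasome and is known from neurons. Fiber libraries had 82.1, 93.0 and 84.6 (E14.5), 127, 116 and 131 (E16.5), 216, 231 and 222 (E18.5), 242, 231 and 265 (P0.5) CPM. Epithelium libraries had 14.1, 15.7 and 14 (E14.5), 18.8, 19.1 and 18.1 (E16.5), 19.1, 22.3 and 19.9 (E18.5), 16.6, 20.0 and 22.6 (P0.5) CPM. Fiber lay above epithelium at each stage without overlap, and the gap widened with age. Its average difference was 8.55-fold (edgeR adjusted p = 5.81e-26). At P0.5 against E14.5 it rose in fiber by 1.51 ± 0.08 (edgeR adjusted p = 2.88e-13), whereas its epithelium change of 0.44 ± 0.10 was not called.

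Of the other 8 DnaJ B genes, Dnajb11 rose and 7 were not called on average. Dnajb11, a soluble partner of BiP, averaged 106 ± 3.42, 112 ± 3.48, 119 ± 4.58 and 117 ± 2.15 CPM in fiber and 55.6 ± 2.39, 57.1 ± 5.07, 54.2 ± 1.41 and 49.5 ± 3.63 CPM in epithelium, a difference of 1.07 ± 0.03 that is -0.13 with library size only. Dnajb4, a close relative of Dnajb1, averaged 15.4 ± 1.52, 18.1 ± 2.2, 28.9 ± 2.4 and 33.6 ± 4.33 CPM in fiber and 9.70 ± 0.879, 11.4 ± 0.847, 14.3 ± 0.859 and 15.8 ± 1.84 CPM in epithelium. Its tissue difference of 0.85 was not called, and it rose in fiber at P0.5 against E14.5 by 1.14 ± 0.11 (edgeR adjusted p = 1.24e-08), or by 0.99, uncalled, with crystallins and Rn45s left out. The endoplasmic reticulum membrane pair Dnajb12 (0.97) and Dnajb14 (0.51), the stress-induced Dnajb9 (0.31), the aggregation suppressor Dnajb6 (0.40), Dnajb5 (-0.45) and Dnajb3 (0.12, near 1 CPM in every group) made up the rest.

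**Figure D2:**
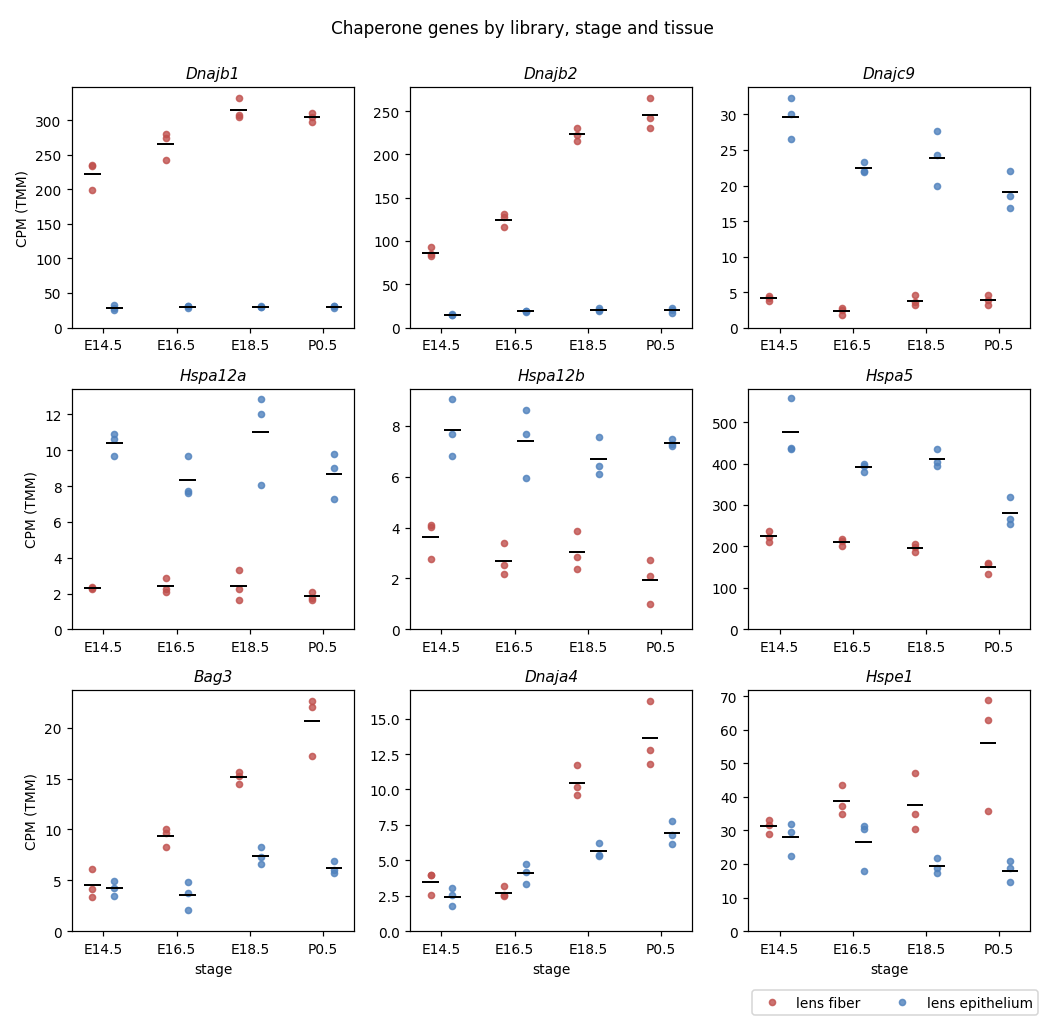
CPM (TMM scaling, linear axes from 0) of 9 chaperone genes in each of the 24 libraries, with fiber in red left of epithelium in blue at each stage and black bars for the means of 3 libraries. Dnajb1 and Dnajb2 sit far higher in fiber, Dnajc9, Hspa12a, Hspa12b and Hspa5 sit lower, Bag3 has a higher mean at each later stage in fiber, Dnaja4 in fiber steps up between E16.5 and E18.5, and the Hspe1 libraries of P0.5 fiber spread widely.

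DnaJ C proteins share only the J domain and work at particular places in the cell. Of the 25, 4 rose in fiber, 1 fell and 20 were not called. The 16% called higher is near the 15.7% of all genes, and the 4% called lower stands beside 22.2%. Dnajc9 (chromosome 14, 20384638 to 20388910, minus strand), a J-domain protein that also chaperones histones and is tied to DNA replication, fell most of all members. Fiber libraries had 4.51, 3.74 and 4.13 (E14.5), 1.79, 2.49 and 2.80 (E16.5), 3.19, 4.52 and 3.53 (E18.5), 3.92, 3.19 and 4.62 (P0.5) CPM. Epithelium libraries had 30.0, 26.5 and 32.4 (E14.5), 22.1, 23.3 and 21.9 (E16.5), 19.9, 27.6 and 24.3 (E18.5), 16.8, 18.51 and 22 (P0.5) CPM. There was no overlap, with fiber 6.82-fold lower (edgeR adjusted p = 3.61e-20). The 5 proliferation markers, among them Mki67 and Top2a, moved with it, summing to 14.3 to 84.3 CPM in fiber libraries and 515.9 to 1177 CPM in epithelium libraries, and their part in the result was not tested.

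The DnaJ C genes that rose were Dnajc13, Dnajc15, Dnajc18 and Dnajc4. Dnajc13, which remodels clathrin on endosomes, averaged 398 ± 17.1, 379.5 ± 12.2, 325 ± 19.7 and 349 ± 7.71 CPM in fiber and 151 ± 6.03, 156 ± 1.31, 132 ± 8.0 and 140.4 ± 14.49 CPM in epithelium (1.32 ± 0.03 log2). Dnajc15, of the mitochondrial inner membrane, averaged 18.0 ± 0.991, 21.3 ± 1.2, 29.4 ± 1.18 and 31.5 ± 2.10 CPM in fiber and 8.77 ± 0.296, 8.26 ± 0.358, 8.47 ± 1.83 and 8.46 ± 0.468 CPM in epithelium (1.52 ± 0.05). For Dnajc18 the means were 106 ± 5.40, 99.3 ± 7.43, 109 ± 3.45 and 106 ± 2.62 CPM in fiber and 36.4 ± 1.57, 38 ± 0.85, 37.3 ± 0.951 and 40.2 ± 3.39 CPM in epithelium (1.47 ± 0.03). Dnajc4 was low, with 8.87 ± 0.697, 10.1 ± 0.913, 10.3 ± 1.08 and 12.1 ± 1.90 CPM in fiber and 4.91 ± 0.62, 4.69 ± 0.636, 4.55 ± 0.672 and 5.89 ± 1.02 CPM in epithelium (1.04 ± 0.08). All 4 had edgeR adjusted p-values at or below 5.13e-12. On library size alone Dnajc4 was at -0.17.

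By the mean over all libraries the highest DnaJ C gene per kb was Dnajc7 (26.7 CPM in fiber and 20.4 in epithelium), which can bind Hsp70 and Hsp90 at once, although Dnajc13 (30.4) was above it in fiber and Dnajc10 (20.6) in epithelium. These ranks depend on the length used. Merged exons span 4863 bases for Dnajc7, 11938 for Dnajc13 and 5004 for Dnajc10, and their longest coding transcripts 2330, 8012 and 4042. Dnajc7 averaged 138 ± 12.2, 134 ± 6.28, 120.5 ± 7.38 and 126 ± 0.524 CPM in fiber and 99.8 ± 5.44, 111 ± 4.54, 90.0 ± 2.36 and 95.3 ± 1.47 CPM in epithelium and was not called (0.39). The uncalled genes of the endoplasmic reticulum were Dnajc1 (0.47), Dnajc3 (0.46), the disulfide reductase Dnajc10 (-0.65) and Dnajc25 (0.17). Those of mitochondria were Dnajc11 (0.33), the import motor subunit Dnajc19 (0.50) and Dnajc30 (0.64). At vesicles, the cysteine string protein Dnajc5 was at 0.16 and the auxilin Dnajc6, which uncoats clathrin vesicles, at -0.42. For the ribosome and splicing factors the values were 0.06 (Dnajc2), -0.84 (Dnajc21), -0.22 (Dnajc8) and -0.01 (Dnajc17). The remaining members Dnajc12 (-0.55), Dnajc14 (0.13), Dnajc16 (0.27), Dnajc24 (0.18), Dnajc27 (0.26) and Dnajc28 (0.11) stayed within 2-fold as well. With crystallins and Rn45s left out, 4 of these uncalled genes, Dnajc6, Dnajc10, Dnajc12 and Dnajc21, were called lower, at -1.44 to -1.02.

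The Hsp110 genes, which release nucleotide from Hsp70 and help it pull apart aggregates, were all above 0 with TMM and all below 0 with library size only, and 1 of 3 was called. Hspa4l had 56.4, 58.4 and 55.2 (E14.5), 64.2, 70.5 and 75.7 (E16.5), 81.2, 78.6 and 83.0 (E18.5), 81, 77.9 and 92.8 (P0.5) CPM in fiber libraries. In epithelium libraries it had 36.2, 34.2 and 31.1 (E14.5), 33.4, 32.3 and 37.4 (E16.5), 32.1, 30.6 and 37.9 (E18.5), 29.7, 26.4 and 28.3 (P0.5) CPM. The tissues did not overlap, and it rose by 1.16 ± 0.04 (edgeR adjusted p = 2.84e-18), or -0.05 with library size only. Hspa4, much the highest of these per kb with 73.9 CPM in fiber and 47.4 in epithelium, averaged 431 ± 12.3, 442 ± 10.5, 398 ± 15.3 and 363 ± 14.6 CPM in fiber and 302 ± 2.55, 295 ± 7.08, 248 ± 4.07 and 202 ± 20.6 CPM in epithelium and was not called (0.66 ± 0.03). The stress-inducible Hsph1 was at 0.82 ± 0.05 on average and was called higher at P0.5 (1.3), the stage at which its epithelium mean was lowest, 34.3 ± 4.45 CPM against 60.7 ± 8.97 at E14.5.

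Bag proteins also act on Hsp70 and decide where its clients go. Bag1, Bag3 and Bag6 rose in fiber with TMM, of which Bag3 (-0.14) and Bag6 (-0.10) had negative values with library size only, and the other 3 were not called. Bag1, which links Hsp70 to the proteasome and stood at 70.2 CPM per kb in fiber, the highest of the family there, and 24.1 in epithelium, below Bag6 (28.7), had 68.1, 63.5 and 67.6 (E14.5), 84.6, 78.5 and 84.7 (E16.5), 112, 96.9 and 109 (E18.5), 128, 123 and 121 (P0.5) CPM in fiber. Epithelium libraries had 31.0, 31.2 and 33.4 (E14.5), 32.4, 34.6 and 32.0 (E16.5), 35.7, 36.2 and 30.8 (E18.5), 29.3, 29.8 and 33.5 (P0.5) CPM. Fiber exceeded epithelium without overlap by 1.5 ± 0.03 (edgeR adjusted p = 3.25e-22), and the fiber libraries of P0.5 were the highest. The order of Bag1 and Bag6 per kb depends on the length used. Merged exons span 1349 bases for Bag1 and 6215 for Bag6, and their longest coding transcripts 1348 and 3858.

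Bag3 (chromosome 7, 128523616 to 128546981, plus strand) guides Hsp70 clients to autophagy together with the small heat shock protein Hspb8. Its fiber libraries had 4.18, 6.08 and 3.37 (E14.5), 8.23, 9.64 and 10.1 (E16.5), 15.6, 15.3 and 14.4 (E18.5), 22.7, 22 and 17.2 (P0.5) CPM. The epithelium libraries had 4.27, 4.90 and 3.42 (E14.5), 2.09, 3.73 and 4.80 (E16.5), 6.58, 7.31 and 8.23 (E18.5), 5.74, 6.02 and 6.90 (P0.5) CPM. At E14.5 the tissues overlapped and from E16.5 they did not. Fiber rose against epithelium by 1.06 ± 0.10 on average (edgeR adjusted p = 5.53e-10) and at P0.5 against E14.5 by 2.2 ± 0.20 within fiber (edgeR adjusted p = 2.57e-09), the largest stage change of any member. Bag6, which captures stray membrane proteins, averaged 302 ± 24, 374 ± 22, 432 ± 26.0 and 443 ± 9.39 CPM in fiber and 196 ± 20.1, 186 ± 9.82, 159.8 ± 8.20 and 172 ± 6.63 CPM in epithelium (1.11 ± 0.04). Bag5 missed the fold threshold (1.0 ± 0.03), and Bag2 (0.11) and Bag4 (0.07) lay near 0.

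The cytosolic Hsp90 genes both rose in fiber with TMM, and both had negative values with library size only (-0.13 for Hsp90aa1 and -0.19 for Hsp90ab1). Hsp90ab1, the constitutive form, was the most abundant chaperone RNA, with 929 CPM per kb in fiber and 456 in epithelium. It made up 25.3 ± 1.07% of the counts of all 69 genes in fiber and 22.6 ± 1.12% in epithelium (SD, n = 12 each). Its means were 2347 ± 38.8, 2726 ± 53.7, 3018 ± 193 and 3053 ± 20.8 CPM in fiber and 1474 ± 44.2, 1387 ± 27.9, 1311 ± 71.1 and 1303 ± 33.7 CPM in epithelium, a difference of 1.02 ± 0.03 (edgeR adjusted p = 3.63e-20). The inducible form Hsp90aa1 had 190.0, 178 and 196 (E14.5), 242, 253 and 229 (E16.5), 286, 276 and 296 (E18.5), 273, 289.6 and 319 (P0.5) CPM in fiber libraries. In epithelium libraries it had 135, 123 and 115 (E14.5), 128, 134 and 109.7 (E16.5), 117, 115 and 122 (E18.5), 99.6, 103 and 116 (P0.5) CPM. The fiber libraries lay above the epithelium libraries throughout, by 1.08 ± 0.04 on average (edgeR adjusted p = 1.93e-18), and 47.5% of its transcript windows are shared with pseudogenes.

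The mitochondrial chaperonin genes Hspd1 (the Hsp60 ring) and Hspe1 (its Hsp10 lid) were not called on average, at 0.28 ± 0.03 and 0.82 ± 0.11. Hspd1, with 59.9 CPM per kb in fiber and 50.3 in epithelium, averaged 174 ± 9.33, 172 ± 8.57, 154 ± 2.67 and 133 ± 4.50 CPM in fiber and 178 ± 7.80, 140.4 ± 1.32, 118 ± 1.43 and 95.1 ± 6.73 CPM in epithelium. Hspe1 averaged 31.2 ± 2.03, 38.6 ± 4.35, 37.4 ± 8.62 and 56.0 ± 17.6 CPM in fiber and 27.9 ± 5.06, 26.6 ± 7.58, 19.3 ± 2.15 and 18.0 ± 3.09 CPM in epithelium (SD, n = 3 each). Its P0.5 fiber libraries spread widely around their mean. Of the transcript windows of Hspd1 26.9%, and of those of Hspe1 22.4%, also occur in other genes, so reads may be shared, which touches their ratio too. Hspe1 stood at 0.323, 0.405, 0.434 and 0.754 times Hspd1 per kb in fiber and at 0.281, 0.339, 0.294 and 0.344 times in epithelium. The genes lie head to head on chromosome 1 and their promoter windows share 285 of 300 bases.

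That shared promoter holds the heat shock element, the repeat bound by heat shock factors. It is shown beside Hsph1, which also holds it, and Dnajb1, the largest riser, which does not in this window. The motif was searched on both strands as GAA, TTC and GAA with any 2 bases between neighbours. It occurred in 198 of 32851 windows (0.603%) and in 6 of 75 chaperone windows (8%), those of Dnajb6, Hspd1, Hspe1 and Hsph1. These 6 are not separate sites. Overlapping windows of Dnajb6 hold the same match, as do those of Hsph1, and Hspd1 and Hspe1 share theirs. Of the 69 genes, 56 had a RefSeq window. Matches are in capitals, on the windows chr1:55087898-55088197 (plus), chr5:149636287-149636586 (minus) and chr8:83607925-83608224 (plus) of GRCm38.p6.
Hspe1: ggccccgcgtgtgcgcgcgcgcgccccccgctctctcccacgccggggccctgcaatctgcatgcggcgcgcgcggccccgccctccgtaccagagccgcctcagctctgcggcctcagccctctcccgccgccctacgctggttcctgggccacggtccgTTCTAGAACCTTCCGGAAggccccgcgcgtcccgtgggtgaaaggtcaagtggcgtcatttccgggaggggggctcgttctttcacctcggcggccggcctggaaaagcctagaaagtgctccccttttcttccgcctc
Hsph1: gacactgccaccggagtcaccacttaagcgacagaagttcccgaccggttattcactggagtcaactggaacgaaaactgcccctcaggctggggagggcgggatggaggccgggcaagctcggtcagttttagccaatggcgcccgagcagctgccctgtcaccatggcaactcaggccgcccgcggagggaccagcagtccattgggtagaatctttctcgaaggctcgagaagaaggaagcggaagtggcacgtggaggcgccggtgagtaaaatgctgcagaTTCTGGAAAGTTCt
Dnajb1: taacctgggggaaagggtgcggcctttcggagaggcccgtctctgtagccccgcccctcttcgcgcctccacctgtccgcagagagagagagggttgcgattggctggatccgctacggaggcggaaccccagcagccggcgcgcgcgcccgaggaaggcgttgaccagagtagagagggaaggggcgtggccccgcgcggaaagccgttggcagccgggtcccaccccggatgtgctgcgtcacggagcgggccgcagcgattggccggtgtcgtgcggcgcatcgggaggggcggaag
The Hspe1 run of capitals holds 2 overlapping matches. None of the 4 genes with the motif was called on average in fiber against epithelium, beside 30.4% of the 69 and 15.7% of all genes called higher. With only 4 genes, no result about the motif follows from this. At P0.5 alone Hspe1 and Hsph1 were called higher, and the Hspe1 difference also grew with age, as given below.

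With TMM all 8 CCT subunit genes had positive differences with an edgeR adjusted p under 0.05 and 6 were called, while with library size only 5 of 8 were positive and their median was 0.15. Cct5 had the steepest difference, with 187.5 CPM per kb in fiber, the highest of the subunits there, and 57.8 in epithelium, below Cct2 (73.2). Its fiber libraries had 403, 421 and 424 (E14.5), 489, 487 and 485 (E16.5), 611, 551 and 551 (E18.5), 580.2, 604 and 615 (P0.5) CPM. Its epithelium libraries had 197, 182 and 193 (E14.5), 163, 171 and 165 (E16.5), 153, 145 and 143 (E18.5), 128, 138 and 139.6 (P0.5) CPM. Fiber exceeded epithelium by 3.24-fold without overlap (edgeR adjusted p = 1.7e-25), and with each later stage the fiber mean was higher and the epithelium mean lower. The rank of Cct5 per kb among the subunits depends on the length used. Merged exons span 2766 bases for Cct5 and 5030 for Tcp1, and their longest coding transcripts 1853 and 2446.

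Tcp1, the alpha subunit, averaged 562 ± 11.8, 654 ± 7.96, 744 ± 21.9 and 835 ± 12.9 CPM in fiber and 256 ± 13, 231 ± 6.83, 189 ± 2.66 and 194 ± 7.46 CPM in epithelium (1.68 ± 0.02). Of its transcript windows 20.2% also occur in other genes, and exons on the opposite strand overlap 14.2% of its exon length, so reads may be shared. Cct3 averaged 334 ± 10.3, 367 ± 3.44, 379.6 ± 30.3 and 365 ± 17.3 CPM in fiber and 166 ± 3.55, 144 ± 4.87, 116 ± 1.57 and 108 ± 6.95 CPM in epithelium (1.45 ± 0.03). Cct7 averaged 264 ± 15.3, 299 ± 3.52, 348 ± 6.69 and 354 ± 7.7 CPM in fiber and 138 ± 6.28, 125 ± 6.42, 116 ± 5.43 and 112 ± 5.92 CPM in epithelium (1.36 ± 0.03). For Cct8 the means were 332 ± 2.53, 369.8 ± 3.30, 401 ± 11 and 409 ± 7.12 CPM in fiber and 183 ± 8.45, 156 ± 6.78, 132 ± 0.321 and 127 ± 5.18 CPM in epithelium (1.35 ± 0.02). For Cct2 they were 375 ± 10.7, 394 ± 6.48, 399 ± 20.5 and 407 ± 11.6 CPM in fiber and 222 ± 11.9, 196 ± 3.40, 166 ± 5.38 and 166 ± 2.16 CPM in epithelium (1.08 ± 0.02, or -0.12 with library size only). Cct6a (0.94 ± 0.03) and Cct4 (0.55 ± 0.03) were not called.

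The complex is built from equal numbers of its 8 subunits, so the share of each subunit in the summed CCT counts per kb was compared between the tissues. Merged exon lengths run from 2557 bases (Cct2) to 6778 (Cct7), and the longest coding transcripts only from 1853 to 2484. The size of a share depends on that length, so the shares do not rank the subunits. Cct5 made up 21.9 ± 1.36% of it in fiber and 16.8 ± 0.44% in epithelium, and Tcp1 16.2 ± 1.11% and 12.6 ± 0.31% (SD, n = 12 each). In the other direction, Cct4 made up 4.72 ± 0.40% in fiber and 7.99 ± 0.35% in epithelium, Cct2 18.2 ± 1.17% and 21.3 ± 0.44%, and Cct6a 12.4 ± 0.76% and 16.0 ± 0.49%. The fiber and epithelium libraries did not overlap for these 5 subunits. The ratio of Cct5 to Cct4 per kb, a pair chosen after seeing the values, was 4.02, 4.20, 5.2 and 5.37 in fiber and 2.16, 2.17, 2.11 and 1.98 in epithelium at the 4 stages.

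**Figure D3:**
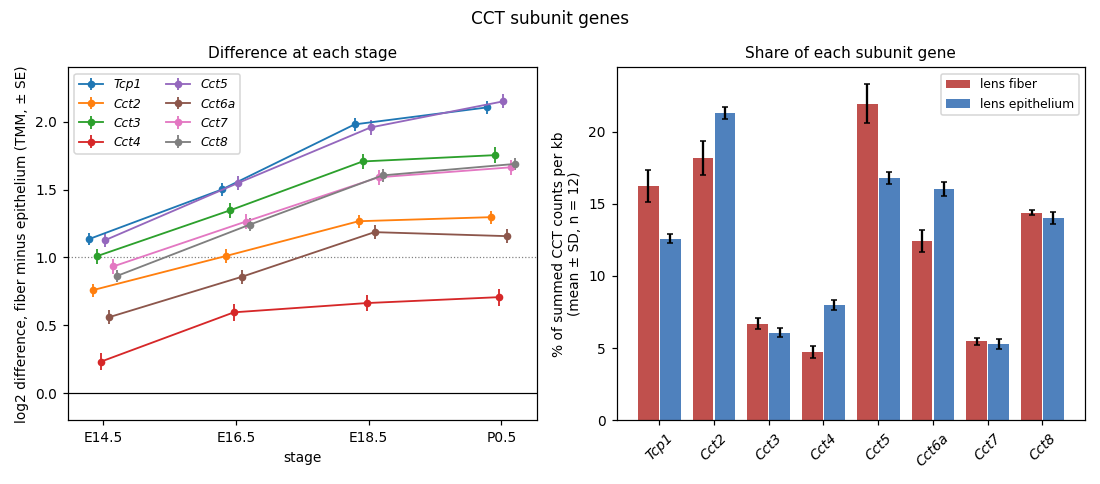
Left, log2 difference of fiber minus epithelium (TMM scaling, bars are SE) of the 8 CCT genes at each stage, with the dotted line at 2-fold. Right, the share of each gene in the summed CCT counts per kb in fiber (red) and epithelium (blue), as mean and SD of 12 libraries. All 8 differences are above 0 with TMM, while with library size only 3 of 8 averaged differences are below 0, and Cct5 and Tcp1 take larger shares in fiber than in epithelium.

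At P0.5 against E14.5, 4 chaperone genes rose in fiber (Bag3, Dnaja4, Dnajb2 and Dnajb4) and none fell, against 6.69% and 5.24% of all genes, with a chaperone median of 0.12. By edgeR's adjusted p alone 30 were higher and 14 lower, beside 27.3% and 27.2% of all genes, and DESeq2 called 4 and 0. With library size only the all-gene median of this fiber comparison was -0.56, 2 chaperone genes (Bag3 and Dnaja4) were called higher and 3 lower. In epithelium over the same interval 2 rose (Dnaja4 and Hspa2) and none fell, against 10.1% and 3.21% of all genes, with a chaperone median of -0.18. By adjusted p alone 14 were higher there and 32 lower, or 20.3% and 46.4% of the 69 beside 30.2% and 28.6% of all genes, and DESeq2 called 2 and 0. All 8 CCT genes (-0.61 to -0.31), all 3 Hsp110, all 3 Hsp90 and both mitochondrial chaperonin genes were among the 32, each by less than 2-fold.

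Between neighbouring stages few calls were made, and the same counts were given by DESeq2. In fiber, Bag3 rose at E16.5 against E14.5 (1.05), beside 1.46% of all genes called higher and 1.61% lower, and it was not called when either E14.5 fiber replicate 1 or 3 or E16.5 fiber replicate 3 was left out. Dnaja4 rose at E18.5 against E16.5 (1.92), beside 1.91% and 0.724%. At P0.5 against E18.5 edgeR called 0 in fiber, beside 0.298% and 0.241%, while 11 were higher and 7 lower at an unadjusted p under 0.05. In epithelium, edgeR called 0 at E16.5 against E14.5, beside 1.71% and 0.821%, with 10 higher and 18 lower at an unadjusted p under 0.05. Bag3 rose there at E18.5 against E16.5 (1.04), beside 6.75% and 0.547%, and not without E16.5 epithelium replicate 1 or E18.5 epithelium replicate 3. At P0.5 against E18.5 edgeR called 0 in epithelium, beside 0.579% and 0.426%, with 5 higher and 18 lower at an unadjusted p under 0.05. By edgeR's adjusted p alone, the steps of fiber in order of age had 14, 15 and 3 higher (beside 9.25%, 12.9% and 2.84% of all genes) and 2, 6 and 3 lower (beside 7.6%, 9.18% and 3.35%). Those of epithelium had 7, 3 and 0 higher (beside 10.8%, 17% and 6.43%) and 15, 17 and 9 lower (beside 12%, 13.8% and 6.82%).

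Whether fiber and epithelium changed differently was tested as the interaction of tissue with P0.5 against E14.5. Called higher, meaning that the fiber difference grew, were 4 chaperone genes and lower none, beside 3.77% and 7.92% of all genes, while by adjusted p alone they were 32 and 7, beside 20.6% and 21.4%, and DESeq2 called 6 and 0. The 4 were Bag3 (1.62 ± 0.29, edgeR adjusted p = 0.000101), Hspe1 (1.47 ± 0.30, 0.000445), Dnajb2 (1.07 ± 0.12, 4.47e-07) and Cct5 (1.02 ± 0.07, 2.64e-10). Close to the threshold were Hspa9 (0.98), Tcp1 (0.97) and Bag1 (0.94), and all 8 CCT genes had positive values with adjusted p under 0.05. Dnajb2 was at 0.96 without P0.5 epithelium replicate 1, and Cct5 at 0.98 without that library and at 1.0, just under 2-fold, without E14.5 epithelium replicate 1. With crystallins and Rn45s left out Bag3 (1.48) and Hspe1 (1.33) were still called, and with library size only none was.

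**Figure D4:**
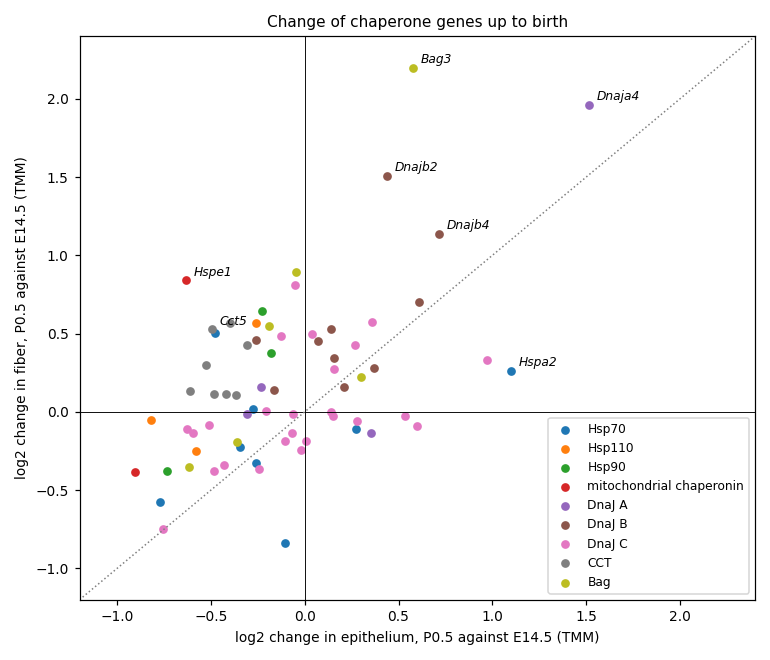
Each point is 1 chaperone gene, coloured by family, with its log2 change at P0.5 against E14.5 in epithelium on the horizontal axis and in fiber on the vertical axis (TMM scaling). Named genes are called in either tissue or in the test of the difference between the changes. Bag3 lies highest, at 2.2 in fiber, and Dnaja4 is high on both axes.

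The wider folding machinery was read from lists of partner genes. Their average counts are to be set beside the 15.7% of all genes called higher and the 22.2% called lower. Of 4 tested heat shock factor genes 2 rose in fiber on average, Hsf4 and the factor-binding Hsbp1 (1.06), and none fell. Hsf4, the lens heat shock factor, averaged 232 ± 17.8, 281 ± 6.37, 340.0 ± 4.48 and 393 ± 18.52 CPM in fiber and 6.50 ± 0.417, 7.78 ± 0.885, 5.68 ± 0.367 and 7.89 ± 1.64 CPM in epithelium (5.46 ± 0.05 log2, edgeR adjusted p = 8.7e-29), while Hsf1 (-0.12) and Hsf2 (-0.16) were not called. Of 20 Hsp90 cochaperones 3 rose, namely the ATPase activators Ahsa1 (1.49) and Ahsa2 (1.21) and the ubiquitin ligase Stub1 (1.37), and none fell. The 3 are 15% of the list beside 15.7% of all genes called higher, and the list median was 0.23 beside -0.03 over all genes. Stip1, which joins Hsp70 to Hsp90, averaged 133 ± 2.60, 146 ± 6.81, 178 ± 7.99 and 183 ± 8.62 CPM in fiber and 128 ± 7.92, 108 ± 2.15, 97.7 ± 8.70 and 77.9 ± 12.4 CPM in epithelium. Of 8 further Hsp70 partners St13 (1.42) and Grpel2 (1.16) rose, with a median of 0.59, and Grpel2 was also the 1 of 8 mitochondrial folding genes called (median 0.43). Of 9 prefoldin and CCT partners, the prefoldin subunits Pfdn1 (1.09) and Pfdn5 (1.53) rose and Pdcl3 (-1.26) fell, with a median of 0.16.

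Of 7 small heat shock protein genes 6 rose in fiber and Hspb2 (-1.54) fell, with a median of 1.85. The list holds both alpha crystallins, Cryaa (3.89) and Cryab (1.17), and Hspb8, the partner of Bag3, averaged 3.31 ± 0.619, 4.05 ± 0.719, 5.57 ± 0.955 and 7.21 ± 1.79 CPM in fiber and 0.582 ± 0.125, 0.548 ± 0.147, 3.38 ± 0.351 and 2.69 ± 0.707 CPM in epithelium. At P0.5 against E14.5, 6 of 7 rose in fiber and 6 of 7 in epithelium, beside 6.69% and 10.1% of all genes. In epithelium, Hspb1 and Hspb3 were near the detection limit. Hspb1 libraries had 0.069 to 0.18 CPM at E14.5 and 0.258 to 0.938 CPM at P0.5. Those of Hspb3 had 0.360 to 0.554 and 0.838 to 1.73 CPM. Of the 21 genes of the endoplasmic reticulum list 3 were called higher (14.3%) and 5 lower (23.8%), shares near the 15.7% and 22.2% of all genes, and the list median was -0.45. Its lower genes were Sdf2l1 (-2.97), Edem1 (-2.02), Ero1lb (-1.28), Creld2 (-1.13) and Ero1l (-1.13), and its higher ones Atf4 (1.90), Herpud1 (1.53) and Pdia6 (1.44). Sdf2l1, which works with BiP, averaged 1.52 ± 0.207, 1.42 ± 0.524, 0.788 ± 0.129 and 0.584 ± 0.184 CPM in fiber and 12.9 ± 2.48, 7.17 ± 0.555, 8.10 ± 1.68 and 5.42 ± 0.655 CPM in epithelium. Hyou1, the Hsp110 relative of that compartment, was at -0.98, beside -0.98 for Hspa5.

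Immediate early genes, which respond within minutes to handling of tissue, were mixed. Of 11 tested, Dusp1 (2.14), Zfp36 (1.90) and Jun (1.14) rose in fiber and Ier3 (-3.30), Junb (-1.62) and Ier2 (-1.52) fell. Their summed level was 189.4 to 336 CPM in fiber libraries and 110.8 to 175.2 CPM in epithelium libraries. Their part in the differences of the heat-inducible members Dnajb1, Hsph1 and Hsp90aa1 was not tested.

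**Figure D5:**
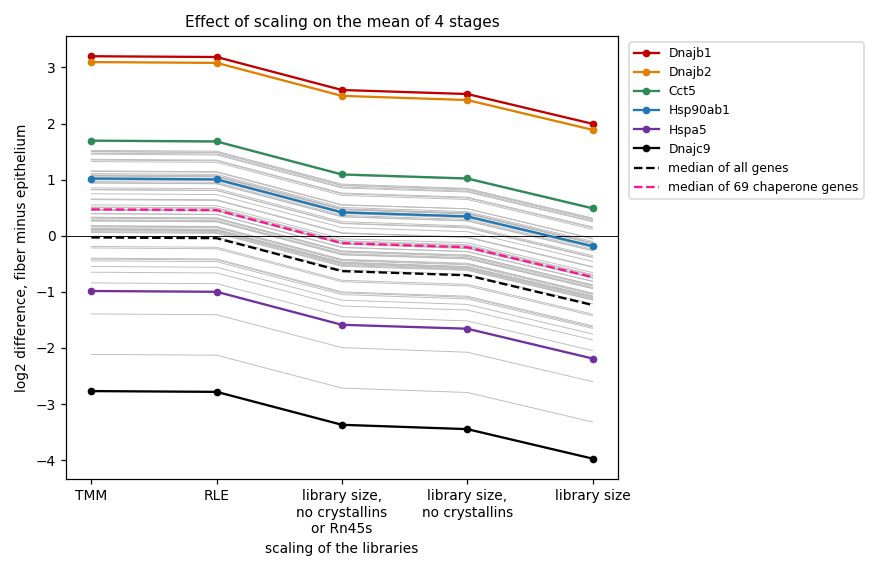
Log2 difference of fiber minus epithelium, averaged over 4 stages, of each chaperone gene (grey lines, 6 named genes in colour) under 5 scalings of the libraries, from TMM on the left to library size on the right. The black dashed median of all genes is -0.03 with TMM and -1.23 with library size, and the sign of the pink median of the chaperone genes turns. The pink line stays 0.50 above the black one because a scaling shifts nearly all genes alike. Dnajb1 and Dnajb2 remain above 1.8 and Dnajc9 below -2.7 in each.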

How the data were processed

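The deposited table holds whole-number read counts per gene symbol, 1 column per library, as the authors made them, not normalized. HTSeq 0.6.1, TopHat2 2.0.13, Cufflinks 2.2.1 with Cuffdiff, Trim Galore 0.4.1 and build mm10 are named per the submitters' processing notes, which give them no role or order. No source used here states how strand was treated in counting, so overlapping genes may share reads, as may genes with near-identical copies. Total counts per library were 7658794 to 21617737, and errors given cover counting and the spread between libraries only. Replicates were not copies of each other (chi-square per degree of freedom 3.89 to 319.9).

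Genes were kept with filterByExpr of edgeR 4.0.16 (minimum count 10, minimum total 15), which removed 184 of 12611. All 24 libraries entered 1 quasi-likelihood fit of 8 group means with TMM scaling (R 4.3.3, 16 residual degrees of freedom), and p-values were adjusted by Benjamini-Hochberg over all 12427 genes. A gene was called with an adjusted p under 0.05 and at least a 2-fold difference. CPM values are TMM-scaled, and levels per kb divide by the merged exon length in GENCODE M21 (GRCm38), which matched 12340 symbols and all 69 chaperone genes. Merged exons can be longer than any single transcript, so the order of genes per kb depends on the length used. Gene sequence uniqueness was counted over 100-base windows of transcripts. Alternatives were library size only, crystallins or crystallins and Rn45s left out, RLE factors, DESeq2 1.42.0, no filter, a replicate block, no fold threshold, and each library left out in turn. The fit was tested on simulated data with 200 changed genes. Values in every group are given for members called on average or at P0.5 against E14.5 and for the highest member of each family per kb by the mean over all libraries, and values in every library for the called member with the largest tissue difference and largest stage change of each family. The members, the partner lists and the promoters shown were chosen with earlier results of these data known.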

Additional observations from a re-analysis of the deposited data

Results flagged for a closer look

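The change at P0.5 against E14.5 differed between fiber and epithelium, by the interaction term of the edgeR fit and at least 2-fold, for 4 chaperone genes. As fiber change minus epithelium change on the log2 scale these were Bag3 at 1.62, Hspe1 at 1.47, Dnajb2 at 1.07 and Cct5 at 1.02. In each of the 4 the value in fiber was positive, 2.2 for Bag3, 0.84 for Hspe1, 1.51 for Dnajb2 and 0.53 for Cct5. The epithelium values were 0.58 for Bag3, -0.63 for Hspe1, 0.44 for Dnajb2 and -0.50 for Cct5.

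Among the partner genes the same test picked out the cochaperone Stip1 at 1.17, with 0.46 in fiber and -0.71 in epithelium. Among the small heat shock proteins it picked out Cryab at 2.33, Hspb1 at 2.79, Hspb2 at 1.89 and Hspb8 at -1.04. Hspb1 was near the detection limit at E14.5, at 0.651 ± 0.111 CPM in fiber and 0.109 ± 0.0614 CPM in epithelium (SD, n = 3 each), and its fiber mean at P0.5 was 20.2 ± 3.10 CPM. Its epithelium libraries of P0.5 were still low, at 0.258 to 0.938 CPM. Of the immediate early genes, Nr4a1 was at 1.89 and Ier2 at -1.10. Explanations of these differences were not tested.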

How the results depend on the processing

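The counts of called chaperone genes moved by more than 1.5 times with the scaling and with the fold threshold. Given as higher and lower for fiber against epithelium averaged over stages and then stage by stage in order of age, edgeR with TMM called 21 and 3, 11 and 4, 18 and 4, 26 and 4, and 27 and 3. With library size only it called 2 and 23, 2 and 10, 2 and 15, 2 and 33, and 2 and 28. With crystallins left out the counts were 4 and 10, 4 and 6, 2 and 10, 4 and 13, and 8 and 10, and with Rn45s left out too 4 and 10, 4 and 7, 3 and 9, 6 and 10, and 10 and 9. For P0.5 against E14.5 in fiber, library size only gave 2 and 3 in place of 4 and 0, and for E16.5 against E14.5 in fiber it gave 0 and 1 in place of 1 and 0, with 0 higher in both settings without crystallins. The interaction had 0 and 7 with library size only, 2 and 1 without crystallins and 2 higher without crystallins and Rn45s.

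With library size only the averaged differences of 9 genes changed sign, to -0.14 for Bag3, -0.10 for Bag6, -0.12 for Cct2, -0.13 for Dnajb11, -0.17 for Dnajc4, -0.13 for Hsp90aa1, -0.19 for Hsp90ab1, -0.051 for Hspa4l and -0.050 for Hspa8. Among the 34 single-gene results, that scaling kept 9 past the threshold, the settings without crystallins 14, and RLE factors, DESeq2, no filter and the replicate block all 34.

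By adjusted p alone, without the fold threshold, the counts higher and lower were 51 and 12 averaged, and by stage in order of age 42 and 10, 45 and 10, 47 and 11, and 45 and 10. For P0.5 against E14.5 they were 30 and 14 in fiber and 14 and 32 in epithelium. The steps in fiber had 14 and 2, 15 and 6, and 3 and 3, and those in epithelium 7 and 15, 3 and 17, and 0 and 9. The interaction had 32 and 7.

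Leaving out 1 library at a time gave 21 to 22 higher and 3 to 4 lower for the averaged comparison. By stage in order of age it gave 9 to 12 higher and 3 to 5 lower, 16 to 19 and 4, 23 to 27 and 4 to 5, and 26 to 29 and 3. P0.5 against E14.5 gave 4 to 5 and 0 to 1 in fiber, the 1 being without P0.5 fiber replicate 2, and 2 to 3 higher in epithelium. For E16.5 against E14.5 in fiber and E18.5 against E16.5 in epithelium the higher counts were 0 to 1. The interaction gave 2 to 5 higher, with 2 without P0.5 epithelium replicate 1, and 0 to 1 lower, with 1 without P0.5 fiber replicate 2 or 3.

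The sources used here do not state whether same-numbered libraries share animals, and replicate numbers were not used as pairs. Deviations of same-numbered libraries correlated at -0.066 to 0.221 over 12 pairs, 3 above 0.1, and 7 of them were best with their own number. These values neither show nor exclude a pairing. With the replicate block the counts were 21 and 3 averaged over stages and 4 and 0 for the interaction, and the block moved no count of any comparison and no single-gene call. The lowest member, Dnajb3 near 1 CPM, was called lower with library size only (-1.08) and not with TMM (0.12).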
